A study of Mus musculus with 18 samples.

Results

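In mouse T helper 1 (Th1) cells, the chromosomal contacts of Ifng, the gene these cells use, were set against those of Il4, which they keep silent. The comparison takes 4 of the 18 arrays of the series, the 2 titled for the Ifng bait in Th1 cells and the 2 titled for the Il4 bait in Th1 cells. It uses the 326361 of 384942 probes that lie on chromosomes 1 to 9 and 12 to 19, so that the chromosomes carrying the baits (10 for Ifng, 11 for Il4) and the sex chromosomes are left out. All 4 arrays read primary CD4+ T cells, with the treatment listed as none and no genotype, strain or age given for them in the labels. The other 14 arrays cover Ifng in naive, Th2 and Stat4 KO Th1 cells and in the 3T3-L1 cell line, and Il4 in naive, Th2 and Stat6 KO Th2 cells, with 2 arrays each. They share the estimate of the spread and serve below as points of reference. The arrays are described as individual biological replicates, except one made from a pool of 2, and the sources used here do not say which, or whether it is among the 18. If cultures were shared, the p-values measure only the spread between arrays, and the small number of arrays limits their precision.

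Ifng encodes interferon gamma, the cytokine by which Th1 cells activate macrophages, and it is switched on by interleukin 12 through STAT4 and the factor T-bet. Il4 encodes interleukin 4, the cytokine of T helper 2 (Th2) cells, which acts through STAT6 and GATA3. 4C joins DNA that lies close to a bait gene in the nucleus to that bait, amplifies the joined fragments and reads them on an array against digested genomic DNA. Contacts with other chromosomes are weak, and active genes are generally found among other active, gene-rich chromatin while silent genes are often found with silent chromatin. The comparison addresses whether an active and a silent gene in the same cells meet the same parts of other chromosomes.

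The labels were checked by the place of the highest 500-kb bin, the unit in which probe values were averaged. The highest bin of Ifng Th1 replicate 1 was at 117000001-117500000 of chromosome 10 (log2 ratio 2.30) and that of replicate 2 was the next one, starting at 117500001 (3.22), while both Il4 Th1 arrays had theirs at 53500001-54000000 of chromosome 11 (3.54 and 3.44). All positions are in the mouse build mm8, as inferred from probe positions. Each array was thus highest on its own bait's chromosome.

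The 4 arrays did not carry equal detail on the other chromosomes. Over 4237 bins, the bin values of the 2 Ifng Th1 arrays correlated at r = 0.169, against r = 0.739 for the 2 Il4 Th1 arrays, as a description over bins that share arrays and probe design. The SD of bin values was 0.0478 and 0.0553 in the Ifng Th1 arrays and 0.0976 and 0.113 in the Il4 Th1 arrays, so the Ifng profiles were flatter. Probe by probe, Ifng Th1 replicate 2 correlated at r = 0.0704 with its own replicate and at r = 0.406 with Il4 Th2 replicate 2, and its bin values correlated at r = 0.541 with the same array. That array nevertheless had no peak at Ifng, with 0.0361 in the bin around the Ifng bait. Why these 2 arrays resemble each other was not tested, so the main values are given per array and the counts of called bins also without the pair. By the leading digits of the array numbers, Ifng Th1 replicate 1 belongs to another array series (31) than the other 3 Th1 arrays (40).

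Bins that differed were mostly lower with the Ifng bait. Of 4237 bins, 56 were lower with Ifng than with Il4 in Th1 cells (1.32% of those tested) and 6 were higher (0.142%), 62 or 1.46% in all, by limma with Benjamini-Hochberg adjusted p at or below 0.05. Without adjustment, 797 bins (18.8%) had p at or below 0.05. Both Ifng arrays lay below both Il4 arrays in 1310 bins (30.9%) and above both in 1139 (26.9%), so by direction alone the bins were close to evenly split. The excess of lower calls depended on scale. After each array was centred on its median bin and divided by the median absolute deviation of its bins, 28 bins were higher and 32 lower, and with that division alone, which raised the median bin difference by 0.38 scaled units, 51 were higher and 15 lower. The count also rested on single arrays, with 0 calls without either Ifng Th1 replicate, 9 without Il4 Th1 replicate 1, 1 without Il4 Th1 replicate 2, and 0 without Ifng Th1 replicate 2 and Il4 Th2 replicate 2 together.

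**Figure D1:**
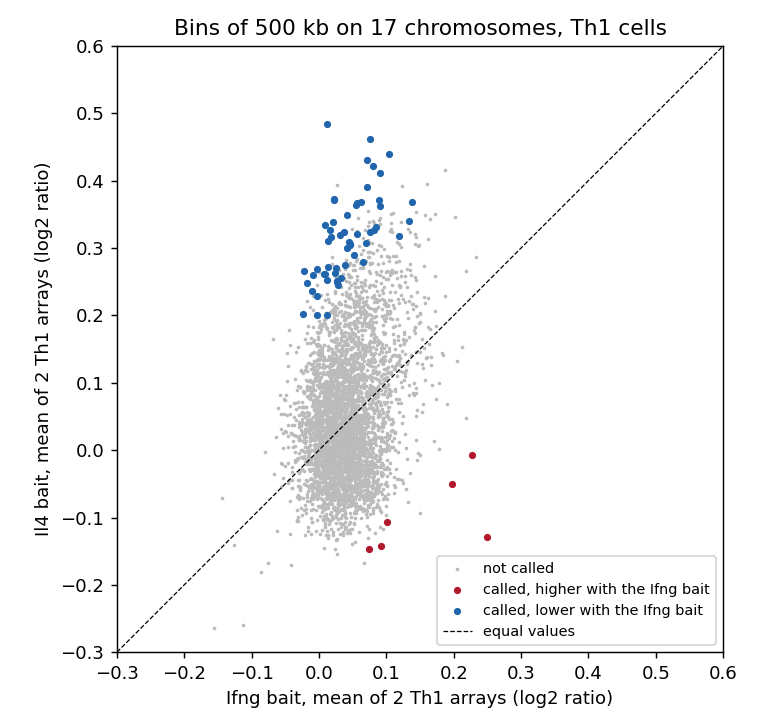
Each point is one 500-kb bin, with the mean log2 ratio of the 2 Ifng Th1 arrays on the horizontal axis and that of the 2 Il4 Th1 arrays on the vertical axis, called bins in colour. The cloud is taller than wide, and the 56 bins called lower with Ifng stand above the dashed line of equal values while the 6 called higher stand below it.

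The bins called lower were places that stood out with the Il4 bait and lay near the genome-wide level with the Ifng bait. Their median log2 ratio was 0.0307 and 0.0423 in the 2 Ifng arrays, against 0.308 and 0.308 in the 2 Il4 arrays, and the median bin of all 4237 was 0.0425 and 0.0315 with Ifng and 0.0462 and 0.0319 with Il4. The median change of the called bins was -0.26, between -0.47 and -0.19. They lay on 15 of the 17 chromosomes, with 8 on chromosome 17 and 7 each on chromosomes 2, 5 and 9, and merged into 49 regions, 44 of them a single bin. They sat in bands with a median of 15 protein-coding genes per Mb, against 6.60 for all bins. Giemsa-light bands held 27 of the 56 (48.2%) and the darkest class held 4 (7.14%), against 41.1% and 29.2% of all bins. In naive cells the same 56 bins had medians of 0.211 with Ifng and 0.207 with Il4, and in Th2 cells 0.165 with Ifng and 0.145 with Il4. In those cell types they were thus high with both baits.

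The most extended of these regions was a block of 4 bins and 288 probes on chromosome 2, at chr2:30500001-32500000 in the Giemsa-light band 2qB. Its mean log2 ratio was 0.00925 and 0.0735 in the Ifng Th1 arrays, against 0.384 and 0.442 in the Il4 Th1 arrays. Both Il4 arrays were high here and both Ifng arrays near 0, with no overlap. The mean over the block was lower by 0.37 on the log2 scale with Ifng, and the best bin had an SE of 0.0732 and an adjusted p of 0.00687 (limma). Of the 288 probes, 7 and 18 were among the highest 5% of their array with Ifng, against 38 and 55 with Il4, and the median probe was -0.030 and 0.010 with Ifng and 0.18 and 0.20 with Il4. With bins summarised by the median over probes, the change was -0.19 and did not pass (adjusted p = 0.0823, limma). The neighbouring bins on both sides, those starting within 3 Mb of the block's first bin, also had higher values with Il4. In naive cells the block averaged 0.202 ± 0.0910 with Ifng and 0.266 ± 0.141 with Il4, and in Stat4 KO Th1 cells it averaged 0.291 ± 0.0209 with Ifng (SD, n = 2 each). The bait difference at this block was 0.31 lower in Th1 than in naive cells on the log2 scale, which did not pass (adjusted p = 0.0555, limma interaction). Without Ifng Th1 replicate 2 the difference was -0.40, and without replicate 1 it was -0.34.

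Of the 8 lower regions named, 3 fell in bands that hold genes of the lists. A band is far wider than a bin, and such a gene may lie outside it. The 9 lists take 9 to 17 of the 334 bands each. The share of all bands with any such gene was not counted, so nothing is read from the 3. The first, chr15:80000001-80500000 in 15qE1, shares its band with Il2rb, a chain of the interleukin 2 and interleukin 15 receptors. Its values were 0.140 and 0.0195 with Ifng and 0.402 and 0.442 with Il4, a change of -0.34 (SE 0.0592, adjusted p = 0.0137, limma). Replicate 1 of Ifng was well above replicate 2, and both stayed below the Il4 arrays. The second, chr9:21500001-22000000 in 9qA3, shares its band with Tyk2, a kinase of the interleukin 12 receptor, and had 0.00155 and 0.0435 with Ifng and 0.342 and 0.401 with Il4 (change -0.35, SE 0.0627, adjusted p = 0.0137). Here the 2 Ifng arrays were close to each other and to 0. The third, chr4:133500001-134000000 in 4qD3, the band of Runx3, a factor that binds the Ifng promoter with T-bet, had 0.00478 and 0.0399 with Ifng and 0.296 and 0.450 with Il4 (change -0.35, SE 0.0618, adjusted p = 0.0137).

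The other 4 lower regions named were single bins with no gene of the lists in their bands. At chr17:27500001-28000000 in 17qA3.3, the Ifng arrays had 0.0131 and 0.131 and the Il4 arrays 0.496 and 0.366 (change -0.36, SE 0.0905, adjusted p = 0.0494, limma). At chr17:28500001-29000000 in the same band, the Ifng arrays had 0.0591 and 0.150 and the Il4 arrays 0.498 and 0.383 (change -0.34, SE 0.0715, adjusted p = 0.0341). In both of these bins the Il4 values of replicate 1 were the highest and Ifng replicate 1 the lowest. At chr7:141000001-141500000 in 7qF5, the Ifng arrays had 0.0436 and 0.138 and the Il4 arrays 0.465 and 0.358 (change -0.32, SE 0.0620, adjusted p = 0.0253). At chr12:85000001-85500000 in 12qD1, the Ifng arrays had 0.0310 and 0.113 and the Il4 arrays 0.411 and 0.370 (change -0.32, SE 0.0627, adjusted p = 0.0253). All 4 were above 0.35 in both Il4 arrays and none exceeded 0.150 in an Ifng array.

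The 6 bins higher with Ifng were single bins on 5 chromosomes. Like the lower ones they sat in gene-rich bands, with a median of 12.5 protein-coding genes per Mb, against 6.60 for all bins. Giemsa-light bands held 2 of the 6 and the darkest class held 0. The bin chr6:129000001-129500000 in 6qF3, a band with 29 natural killer receptor genes (Klr family) including Klrb1c, Klrd1 and Klrk1, had 0.217 and 0.177 with Ifng and -0.0288 and -0.0703 with Il4. Both Ifng arrays were high, both Il4 arrays were slightly below 0, and the change was 0.25 (SE 0.0481, adjusted p = 0.0253, limma). Among its 80 probes, 12 and 11 were in the highest 5% with Ifng, against 3 and 2 with Il4. However, 2 probes, 9 kb apart, were high in both Ifng arrays, so most of the high probes were not the same ones. The band as a whole did not follow the bin, since the mean of 6qF3 differed by -0.022 on the log2 scale. Other regions also had few shared high probes. Probes high in both Ifng arrays numbered 1 of 5 and 5 at chr7:106000001-106500000 and 0 of 7 and 3 at chr4:92500001-93000000. At lower regions, probes high in both Il4 arrays numbered 1 of 10 and 10 at chr17:27500001-28000000 and 2 of 10 and 11 at chr7:141000001-141500000. The share was larger in some regions, with 6 of 13 and 10 at chr17:28500001-29000000 and 2 of 7 and 3 at chr7:108000001-108500000.

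The bin chr1:140000001-140500000 lies in 1qE4, the band of Il10 and Il24, cytokine genes, and of Ptprc, which encodes the leukocyte surface phosphatase CD45. Its values were 0.212 and 0.244 with Ifng and -0.0248 and 0.0112 with Il4 (change 0.23, SE 0.0515, adjusted p = 0.0341, limma). Of 86 probes, 12 and 13 were in the highest 5% with Ifng and 3 and 3 with Il4, while the median probe was -0.030 and 0.030 with Ifng and -0.060 and -0.020 with Il4. The difference thus sat in a minority of probes, and its size was 0.040 when each bin was summarised by its median. The flanking bins on both sides were low with both baits. The mean of band 1qE4 differed by -0.039 on the log2 scale, opposite to the bin (adjusted p = 0.356, limma). In naive cells the same bin was also higher with Ifng, at 0.216 ± 0.0907 against -0.0187 ± 0.0532 with Il4 (SD, n = 2 each; adjusted p = 0.0411, limma), and in Stat4 KO Th1 cells it was 0.263 ± 0.0459 with Ifng. It was the single bin among the 6 that was also called higher with Ifng in naive cells.

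The 2 bins of 7qE3, a band with 238 olfactory receptor genes, had the largest and the second smallest change of the higher ones. The bin chr7:106000001-106500000, with 39 probes, had 0.184 and 0.316 with Ifng and -0.0987 and -0.158 with Il4 (change 0.38, SE 0.0830, adjusted p = 0.0341, limma). The bin chr7:108000001-108500000 had 0.127 and 0.0211 with Ifng and -0.164 and -0.130 with Il4 (change 0.22, SE 0.0506, adjusted p = 0.0381). In the first of these, the Stat4 KO Th1 arrays with the Ifng bait averaged 0.538 ± 0.299 (SD, n = 2), and the Il4 bait was low in naive cells too, at -0.138 ± 0.0363. The remaining higher bins were chr2:40500001-41000000 in 2qB, with 0.171 and 0.0116 with Ifng and -0.127 and -0.159 with Il4 (change 0.23, SE 0.0575, adjusted p = 0.0473), and chr4:92500001-93000000 in 4qC5, with 0.10 and 0.10 with Ifng and -0.101 and -0.111 with Il4 (change 0.21, SE 0.0521, adjusted p = 0.0494). In 4 of the 6 bins both Il4 arrays were clearly below 0, so that low Il4 values made up part of the difference. The Klr and olfactory families are remarked on because the values were seen first. Olfactory receptor genes also lie in bands of lower regions, with 37 in 2qB and 26 in 9qA3. Band 2qB holds both a lower region and a higher bin. Of the 14 named regions in both directions, none passed without either Ifng Th1 replicate or without Il4 Th1 replicate 2, 4 passed without Il4 Th1 replicate 1, 6 passed within array series 40, and none changed sign. Leaving out arrays could not change a sign, since regions were named only where the baits do not overlap. None passed with the median over probes, where 8 of the 14 changes moved by over 1.5 times. At this setting the change was -0.16 at chr17:28500001-29000000, -0.18 at chr7:141000001-141500000, -0.22 at chr15:80000001-80500000, -0.21 at chr9:21500001-22000000, 0.21 at chr7:106000001-106500000, 0.14 at chr6:129000001-129500000 and 0.040 at chr1:140000001-140500000. With 1000-kb bins, 6 of the 14 moved by over 1.5 times, among them chr15:80000001-80500000 to -0.14 and chr7:106000001-106500000 to 0.15, and 6 passed. With 200-kb bins 4 passed, and with trend and robust eBayes 2 did. The change at chr2:40500001-41000000 was 0.15 without Ifng Th1 replicate 1.

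**Figure D2:**
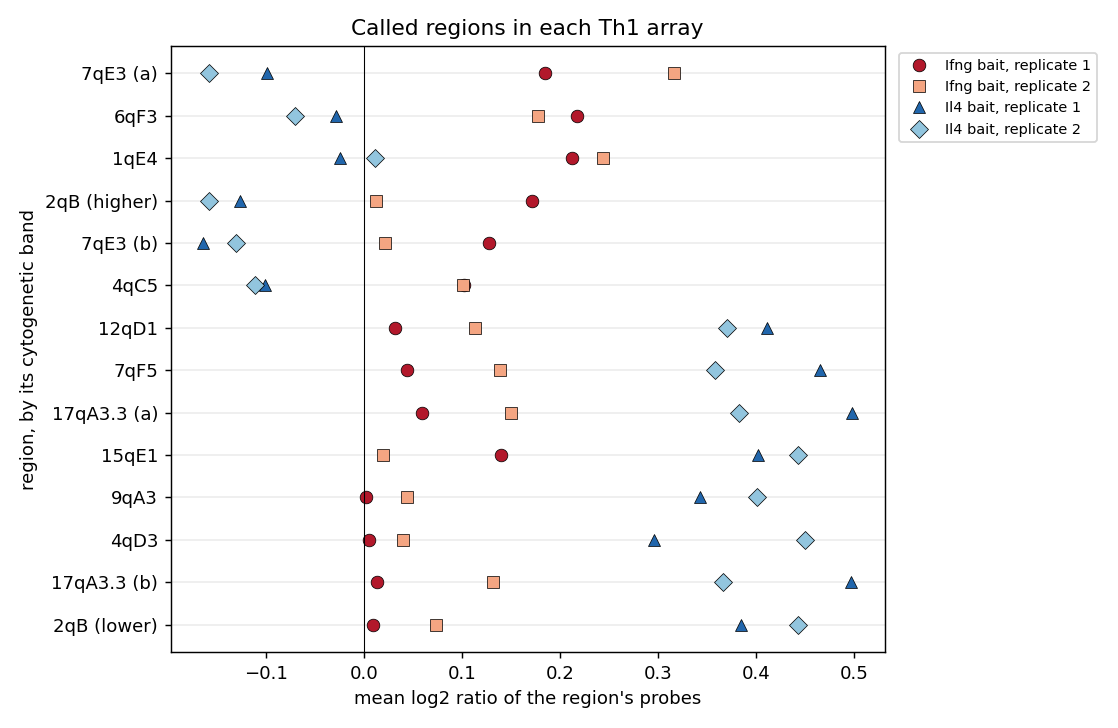
Mean log2 ratio (horizontal axis) of each of the 14 named regions in the 4 Th1 arrays, ordered from the largest positive to the largest negative difference and labelled by band, with letters where a band holds 2 regions. Regions were named only where the baits do not overlap, and the 8 lower regions lie at 0.150 or below with Ifng and at 0.296 or above with Il4.

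**Figure D3:**
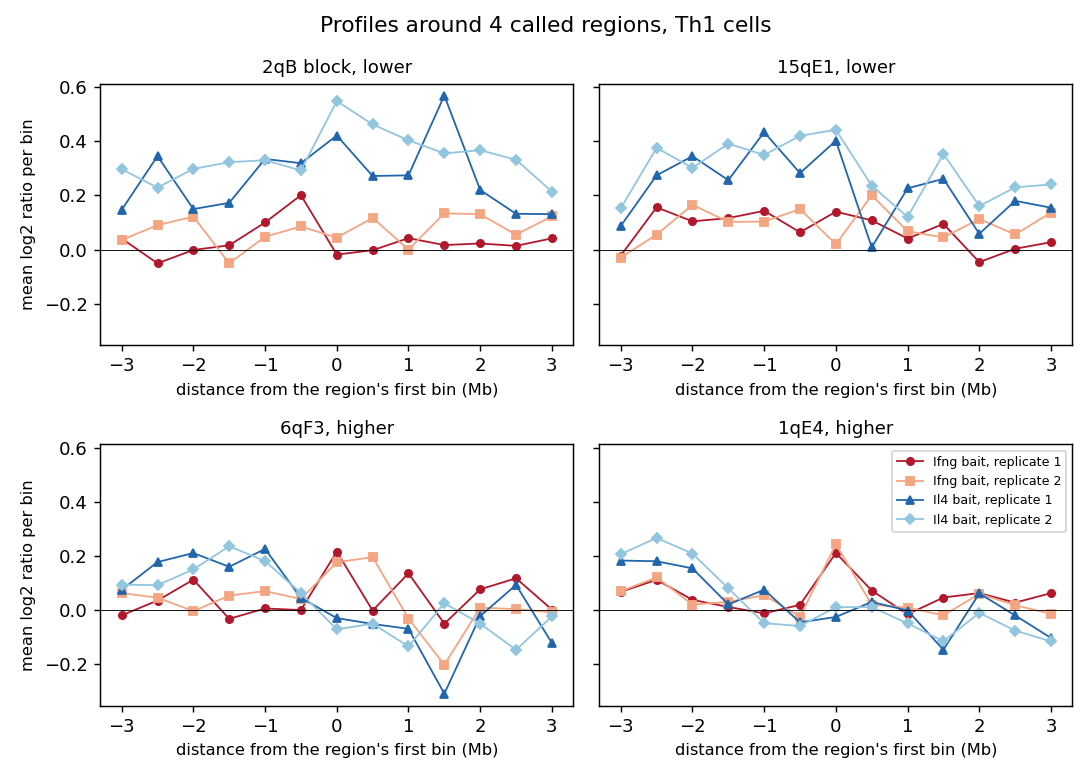
Mean log2 ratio per 500-kb bin (vertical axis) by distance in Mb from the first bin of 4 regions (horizontal axis), one line per Th1 array. The lower regions in 2qB and 15qE1 lie in stretches of several Mb where the Il4 arrays are raised. The stretch at 15qE1 is broken by the next bin, with 0.0082 and 0.236 with Il4 and 0.108 and 0.201 with Ifng. The higher ones in 6qF3 and 1qE4 are peaks of 1 bin in both Ifng arrays. The bin after 6qF3 is high in replicate 2 only (-0.0011 and 0.196 with Ifng).

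The highest bins repeated less between the Ifng replicates than between the Il4 replicates. Among the highest 5% of bins (212 an array), the Ifng arrays shared 35 (16.5% of each list) and the Il4 arrays shared 99 (46.7%). Between baits, Ifng replicate 1 shared 29 and 23 with the Il4 arrays, and Ifng replicate 2 shared 42 and 42. Ifng replicate 2 thus shared more bins with either Il4 array than with its own replicate. In all, 3 bins were in the highest 5% of all 4 arrays, which is 8.57% of the 35 and 3.03% of the 99. They were chr3:89000001-89500000, with 0.190 and 0.276 with Ifng and 0.287 and 0.287 with Il4, chr5:34500001-35000000, with 0.131 and 0.191 against 0.349 and 0.279, and chr15:76000001-76500000, with 0.183 and 0.192 against 0.494 and 0.337. The 35 bins high in both Ifng arrays lay in bands with a median of 14.0 genes per Mb and the 99 high in both Il4 arrays in bands with 15.6. The bins that repeated with either bait were thus in gene-rich bands.

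Whole chromosomes differed little with the Ifng bait and more with the Il4 bait. The SD of the 17 chromosome means was 0.00444 and 0.00398 in the Ifng arrays and 0.0135 and 0.0200 in the Il4 arrays. Of 17 chromosomes, 3 were lower with Ifng (17.6%) and none higher by limma with adjusted p, and the same 3 had unadjusted p at or below 0.05. Chromosome 19 had 0.0377 and 0.0347 with Ifng and 0.0772 and 0.0735 with Il4 (change -0.039, SE 0.0118, adjusted p = 0.0256). Chromosome 9 had 0.0422 and 0.0432 with Ifng and 0.0830 and 0.0772 with Il4 (change -0.037, SE 0.0121, adjusted p = 0.0256). Chromosome 17, which carries the major histocompatibility complex, had 0.0415 and 0.0396 with Ifng and 0.0729 and 0.0760 with Il4 (change -0.034, SE 0.0117, adjusted p = 0.0302). On all 3 the replicates of each bait lay close together and the baits apart. The other end of the order did not pass, with 0.021 for chromosome 3 (adjusted p = 0.228), 0.0067 for chromosome 1 (0.771) and 0.0034 for chromosome 16 (0.875). On 9 chromosomes both Ifng arrays lay below both Il4 arrays, and on the other 8 the groups overlapped. The chromosome calls depended on centring and scale, with none when arrays were centred on the mean, none without any 1 of the 4 arrays, and 3 higher in place of 3 lower when arrays were divided by their spread alone.

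Gene-rich chromosomes were the ones raised with Il4. Across the 17 chromosomes, the mean correlated with genes per Mb at r = -0.570 and 0.592 in the Ifng arrays and at r = 0.583 and 0.792 in the Il4 arrays, as a description over chromosomes that share arrays. The 2 Ifng replicates thus ran in opposite directions.

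**Figure D4:**
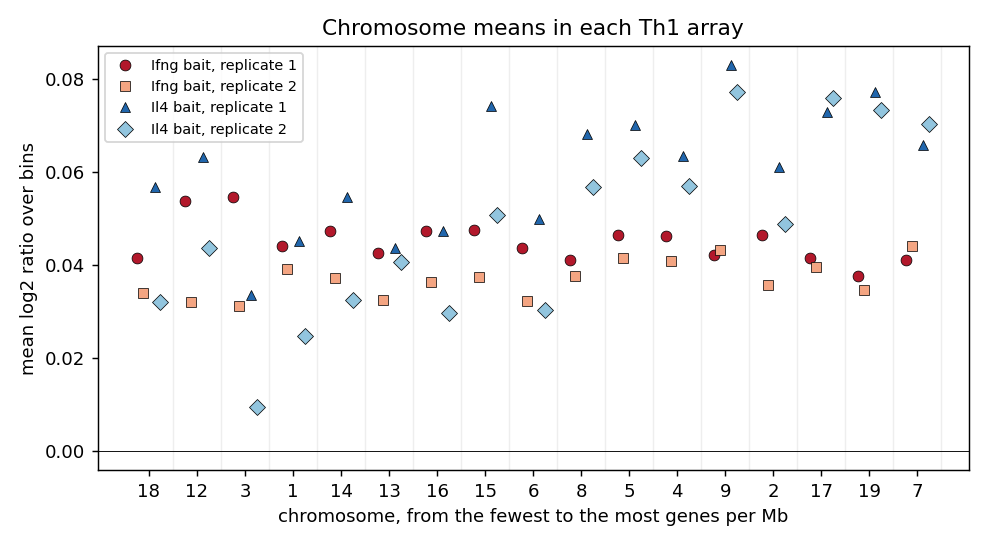
Mean log2 ratio over bins (vertical axis) of each of the 17 chromosomes, ordered by genes per Mb (horizontal axis), in the 4 Th1 arrays. The Ifng points stay between 0.0311 and 0.0546 while the Il4 points range from 0.00956 to 0.0830, and are highest on gene-rich chromosomes.

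Below the chromosome scale, the values climbed with gene density in the Il4 arrays, less in Ifng replicate 2, and not in Ifng replicate 1. Bins were split into 5 groups of about equal size by the protein-coding genes per Mb of their band. The gene-densest group exceeded the gene-poorest by -0.0053 and 0.0256 in the Ifng arrays and by 0.10 and 0.14 in the Il4 arrays. The groups did not overlap, and the mean difference was -0.11, but the exact permutation test of 2 against 2 arrays cannot go below p = 0.333 (two-sided), the value found here. Divided by each array's spread, the 4 values were -0.116 and 0.527 with Ifng and 1.14 and 1.27 with Il4, again without overlap. Over the 5 groups from the poorest to the densest, Ifng minus Il4 was 0.044, 0.018, -0.016, -0.035 and -0.068, changing sign between the second and the third. Giemsa staining, which marks gene-rich chromatin as light bands, gave the same direction. Light bands exceeded the darkest by -0.0037 and 0.0111 in the Ifng arrays and by 0.0392 and 0.0541 in the Il4 arrays (difference -0.043, exact permutation p = 0.333, two-sided). Scaled by each array's spread, the difference was -0.39 with the same direction. Leaving out any 1 of the 4 arrays kept it between -0.050 and -0.036.

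Light minus dark values of the other groups place the Ifng Th1 arrays at the low end. The mean was 0.0037 ± 0.0105 for Ifng in Th1 cells, 0.025 ± 0.0040 in Stat4 KO Th1 cells, 0.032 ± 0.0073 in Th2 cells, 0.048 ± 0.016 in naive cells and 0.0079 ± 0.012 in 3T3-L1 cells. With Il4 it was 0.047 ± 0.0105 in Th1 cells, 0.026 ± 0.0092 in Th2 cells, 0.042 ± 0.012 in Stat6 KO Th2 cells and 0.041 ± 0.040 in naive cells (SD, n = 2 each). The Ifng Th1 and 3T3-L1 values differ by less than the spread of their arrays, and so do the Il4 Th1, Stat6 KO and naive values.

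**Figure D5:**
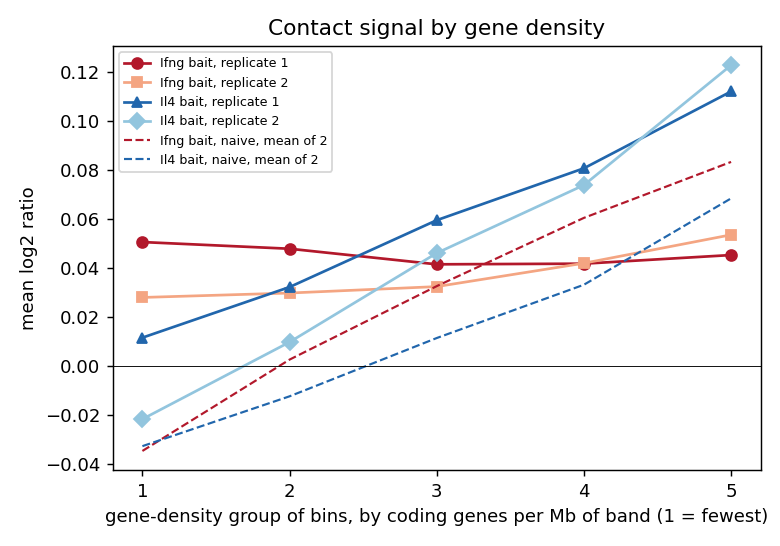
Mean log2 ratio (vertical axis) over 5 groups of bins by coding genes per Mb (horizontal axis, 1 is the gene-poorest), with solid lines for the 4 Th1 arrays and dashed lines for the means of 2 naive arrays with each bait. The line of Ifng Th1 replicate 1 is nearly flat and that of replicate 2 climbs from 0.0280 to 0.0535, while the Il4 Th1 lines and both naive lines climb more steeply.

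The Il4 Th1 arrays correlated more with the mean of the naive arrays than the Ifng Th1 arrays did. The bin values correlated with the mean of the 4 naive arrays at r = 0.0879 and 0.414 in the Ifng Th1 arrays and at r = 0.742 and 0.815 in the Il4 Th1 arrays (4237 bins, a description). The naive arrays were not alike in this. The Il4 Th1 arrays correlated at r = 0.367 and 0.314 with Il4 naive replicate 1 and at r = 0.751 and 0.849 with replicate 2. They also correlated with arrays of other cells, such as Il4 Stat6 KO Th2 replicate 1 (r = 0.668 and 0.771) and Ifng Th2 replicate 1 (r = 0.656 and 0.722). The slopes on that mean were 0.0454 and 0.247 with Ifng and 0.783 and 0.994 with Il4. The 212 bins highest in naive cells averaged 0.0649 and 0.0909 with Ifng and 0.231 and 0.254 with Il4 in Th1 cells. The 212 lowest averaged 0.0385 and 0.0046 with Ifng and -0.0393 and -0.0789 with Il4. At both ends of the naive profile the baits did not overlap (exact permutation p = 0.333, two-sided, for each). Divided by each array's spread, the highest bins averaged 1.41 and 1.87 with Ifng and 2.61 and 2.24 with Il4, and the lowest 0.840 and 0.0948 with Ifng and -0.444 and -0.696 with Il4. The baits then still did not overlap, and the relative gap at the highest bins was smaller. The last 10 Mb of the chromosomes, away from the centromere, averaged 0.0469 and 0.0482 with Ifng and 0.0961 and 0.0909 with Il4, whereas in the first 10 Mb, with 0.0429 and 0.0275 against 0.0385 and 0.0372, the groups overlapped.

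Among cytogenetic bands, through which genes could be placed, 2 of 334 were lower with Ifng (0.599%) and none higher, by limma with adjusted p, while 97 (29%) had unadjusted p at or below 0.05. Band 12qD1 had 0.0488 and 0.0325 with Ifng and 0.219 and 0.163 with Il4 (change -0.15, SE 0.0299, adjusted p = 0.0412). Band 9qF4 holds Cxcr6, a chemokine receptor of effector T cells, and had 0.0472 and 0.0513 with Ifng and 0.203 and 0.194 with Il4 (change -0.15, SE 0.0304, adjusted p = 0.0412). Both bands were raised in both Il4 arrays, and neither passed when any 1 of the 4 arrays was left out. The next 3 lower bands, 6qA3.3, 5qB2 and 17qA3.3, did not pass (adjusted p = 0.0519 each), with changes of -0.092, -0.16 and -0.19. Band 17qA3.3 holds 14 vomeronasal receptor genes. The 5 bands with the smallest p among the higher ones did not pass either. They were 12qB2 (0.15, adjusted p = 0.0867), 17qA3.2, a band with 62 vomeronasal receptor genes (0.091, 0.0960), 6qC2 (0.12, 0.0976), 17qA3.1 (0.16, 0.0982) and 5qD (0.071, 0.0982). Bands 6qC2 and 5qD are gene-poor, at 0 and 0.26 protein-coding genes per Mb. The others had 3.41 (12qB2), 5.36 (17qA3.1) and 14.0 (17qA3.2), against a median of 6.45 for all bands.

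Among the bands of T cell genes, 1 was called, beside 2 (0.599%) of all 334 bands. Of the 13 bands with genes of the Th1 programme, 1 was called lower (9qF4, with Cxcr6), 10 had lower values with Ifng, and the median difference was -0.056. Of the 12 bands of the Th2 programme, none was called, all 12 had lower values and the median was -0.059. The 17 bands of naive and pan-T genes had a median of -0.042, with 13 lower, the 15 of JAK-STAT and SOCS genes -0.027, with 11 lower, and the 14 of Th17 and Treg genes -0.018, with 9 lower. Lists of other cell types did much the same, with -0.065 for 11 B cell bands, -0.022 for 9 myeloid and NK bands and -0.052 for 10 housekeeping bands. The 14 bands of neuronal genes had 0.027, with 5 lower. Over all 334 bands the median was -0.0040, with 180 lower. None of these lists except the Th1 programme held a called band. Their bands also differed in gene density, with medians of 14.1 genes per Mb for the Th1, 8.98 for the Th2 and 12.9 for the housekeeping list, against 4.45 for the neuronal list and 6.45 for all bands.

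Bands of the landmark genes had values in both directions, and none was called, beside 2 (0.599%) of all 334 bands. The genes lay in 15 bands, of which 11 had a lower value with Ifng, beside 180 of all 334 bands. Ifngr2 and Cd4 were too near a band's edge to be placed. Band 1qC1.1, which holds Stat4, the factor downstream of interleukin 12, had 0.0618 and 0.0462 with Ifng and 0.0088 and -0.016 with Il4 (change 0.058, SE 0.0256, adjusted p = 0.152, limma). It was the largest positive value among them, and the groups did not overlap. Band 4qD3 of Runx3 had 0.0383 and 0.0999 with Ifng and 0.229 and 0.292 with Il4 (-0.19, SE 0.0516, adjusted p = 0.0867), the largest negative one. Band 9qF3 of Eomes, a relative of T-bet, had 0.0409 and 0.0517 with Ifng and 0.13 and 0.10 with Il4 (-0.069, adjusted p = 0.105). Among Th2 genes, the band of Maf (8qE1), which activates Il4, had 0.0467 and 0.0559 with Ifng and 0.137 and 0.155 with Il4 (-0.095, adjusted p = 0.113), and the band of Gata3 (2qA1), the Th2 master factor, had 0.0314 and 0.0224 with Ifng and 0.0437 and 0.0377 with Il4 (-0.014, adjusted p = 0.681).

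The remaining landmark bands lay between these. The change was 0.012 for Il12rb2 (6qC1), -0.042 for Il12rb1 (8qB3.3) and -0.064 for Il18r1 (1qB), which encode receptor chains for interleukins 12 and 18. It was -0.063 for Il4ra (7qF3), -0.039 for Il10 (1qE4) and -0.058 for Socs1 (16qA1), an inhibitor of cytokine signalling. For Il2 (3qB), and for Il7r (15qA1), Bach2 (4qA5) and Ets1 (9qA4), genes of the naive state, it was 0.028, -0.0021, 0.0067 and -0.010. None of these 10 bands passed, and the lowest adjusted p was 0.138, for 1qB (limma).

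No band rich in members of the gene families examined was called, beside 2 (0.599%) of all 334 bands. Calls were too few to tell these bands from the others. Of 19 bands with at least 10 olfactory receptor genes, 8 had higher values with Ifng and the median was -0.010, and of 13 bands with as many vomeronasal receptor genes 4 were higher and the median was -0.012. The 14 bands of zinc finger (Zfp) genes had a median of -0.064, with 1 higher, and 17qB1, the band of the major histocompatibility genes, had -0.065 (adjusted p = 0.0960, limma). The families were chosen with results of these data known.

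The bait difference of Th1 cells was also set against that of naive and Th2 cells, in the same limma fit, each bait difference having its own arrays. Against naive cells, 25 of 4237 bins differed (0.59%, with 642 or 15.2% at unadjusted p), all in the direction of a lower Ifng-minus-Il4 value in Th1 cells. Of these, 11 were also called in Th1 cells alone, 23 had a lower value with Ifng in Th1 cells, and all 25 had a higher one with Ifng in naive cells. Among the named regions, 5 were in this set. One of them, chr9:21500001-22000000, had 0.332 ± 0.135 with Ifng and 0.179 ± 0.107 with Il4 in naive cells (SD, n = 2 each), so that the bait difference was lower by 0.50 in Th1 cells (log2 scale, adjusted p = 0.00795). The count of 25 was 6 and 5 without Ifng Th1 replicate 1 and 2, 12 without either Il4 Th1 replicate, and 1 when arrays were centred on the median bin and scaled. Of 334 bands, 2 differed from naive cells (0.599%), and of 17 chromosomes 1 did (5.88%).

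Against Th2 cells, 2 bins differed (0.0472%, with 629 or 14.8% at unadjusted p). One was chr15:80000001-80500000, which had 0.258 ± 0.00086 with Ifng and 0.135 ± 0.0311 with Il4 in the Th2 arrays (SD, n = 2 each). The bait difference there was lower by 0.47 in Th1 cells (log2 scale, adjusted p = 0.0276, limma). The count was 2 and 0 without Ifng Th1 replicate 1 and 2, and 0 and 1 without Il4 Th1 replicate 1 and 2. No band differed by limma, with 83 (24.9%) at unadjusted p. Of 17 chromosomes, 10 were lower (58.8%), beside a median bin of 0.0437 and 0.0423 in the Ifng Th2 arrays and of 0.0082 and 0.0223 in the Il4 Th2 arrays, a gap over all chromosomes whose part in these calls was not tested. In naive cells by themselves, 19 bins were higher with Ifng (0.448%) and 1 lower (0.0236%). In Th2 cells no bin differed by limma, with 221 (5.22%) at unadjusted p.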

How the data were processed

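Per the labels' protocols, HindIII digestion and ligation were followed by Csp6I digestion, a further ligation and inverse PCR from the bait. 4C DNA was labelled with Cy5 and digested genomic DNA with Cy3. The deposited values are log ratios of Cy5 over Cy3 per probe, made by the authors and taken as log2, since no source used here states the base, the background correction, the filters or the build. The protocol names other baits and adherent cells, so titles and source names were followed. In the Ifng Th1 pair 42.8% of sorted values agree within 0.011, and in the Il4 Th1 pair 100.0%. The build was inferred as mm8, with 0 of 21 chromosomes having a probe past their end, against 15, 5 and 8 for mm7, mm9 and mm10.

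From each array the median over probes on the 17 chromosomes was subtracted, without loess or quantile normalization. Means were taken over 500-kb bins holding 20 probes or more and over bands holding 40 or more. Limma 3.58.1 in R 4.3.3 (lmFit, contrasts, eBayes) fitted all 18 arrays in 9 groups (9 residual degrees of freedom), two-sided, with Benjamini-Hochberg adjustment over all bins, chromosomes or bands at 0.05. Interactions were contrasts of the same fit. The fit was tested on simulated data. Single summaries used an exact permutation test over arrays. Neighbouring called bins of one direction formed a region. Its change is averaged over its bins, and its SE and adjusted p come from the bin with the lowest p.

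Named are at most the 8 regions and 5 bands with the largest change in each direction among those called without overlap (bands that did not pass: smallest p), the 3 chromosomes at each end, and the bands of landmark genes, of which 1 gene is not reported here. Genes, from a RefSeq table of GRCm38.p6, were placed in mm10 bands. They were matched by band name only to the mm8 bands that hold the probes (bands of circlize 0.4.16). Genes of the lists and landmarks within 500 kb of a band's edge were left out, but not those counted in families. Coding genes per Mb come from the same table, for bands over mm10 band lengths and without that edge rule. Members, gene lists and families were chosen with earlier results of these data known. Replicate numbers come from titles. The deviations of the 2 Th1 pairs correlate at r = 0.136, but nothing says that a number marks a shared source, so the arrays were not treated as paired. Figures used Python 3.11.15 and matplotlib 3.10.9.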

Additional observations from a re-analysis of the deposited data

Results flagged for a closer look

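The bait difference, Ifng minus Il4, differed between Th1 and naive cells in 25 bins by the limma interaction, all toward lower values in Th1 cells, and between Th1 and Th2 cells in 2 bins. By bands, 2 differed between Th1 and naive cells. They were 16qC4, with 0.0363 and 0.0499 with Ifng and 0.135 and 0.130 with Il4 in Th1 cells, against 0.286 ± 0.0304 and 0.143 ± 0.0833 in naive cells, and 6qA3.3, with 0.0312 and 0.00714 with Ifng and 0.111 and 0.111 with Il4 in Th1 cells, against 0.108 ± 0.0112 and 0.0420 ± 0.0186 in naive cells (SD, n = 2 each; limma adjusted p = 0.0158 for both). By chromosomes, 1 differed between Th1 and naive cells, chromosome 9, and 10 of 17 between Th1 and Th2 cells.

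Among the named regions, the change of the bait difference from naive to Th1 cells passed in limma at chr9:21500001-22000000 (-0.50), chr15:80000001-80500000 (-0.47), chr12:85000001-85500000 (-0.43), chr4:133500001-134000000 (-0.41) and chr7:141000001-141500000 (-0.38). The region at chr15:80000001-80500000 also differed from Th2 cells, by -0.47.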

How the results depend on the processing

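Bins called in Th1 cells, 62 in the fit as reported, numbered 15 with 200-kb bins, 0 with the median over probes, 6 after quantile normalization, 17 with centring on the mean, 3 with trend and robust eBayes, 425 with array weights, 27 with the array series as a block, 18 within series 40, 11 with the 12 wild-type T cell arrays, 254 with the 4 Th1 arrays alone, and 0 to 9 with 1 Th1 array left out. Without Ifng Th1 replicate 2 and Il4 Th2 replicate 2 there were 0. Chromosomes called, 3 as reported, numbered 0 with the median, quantile normalization, centring on the mean, the series block, any 1 array or that pair left out, 1 when centred on the median bin and scaled, and 6 with the 4 Th1 arrays. Bands called, 2 as reported, numbered 0 with the median, quantile normalization, extreme probes left out, trend and robust eBayes, the series block, the 12 arrays, any 1 array or that pair left out, 35 when scaled, 7 when centred and scaled, 98 with weights, 42 within series 40 and 139 with the 4 arrays. The 2 reported bands were lower with Ifng. When scaled, 33 bands were higher and 2 lower, so most band calls then went the other way. When centred and scaled, 2 were higher and 5 lower. The split was 24 higher and 74 lower with weights, and 55 higher and 84 lower with the 4 arrays.

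Bins in which the bait difference differed from naive cells, 25 as reported, numbered 13 and 6 with 200-kb and 1000-kb bins, 0 with the median and when scaled, 2 after quantile normalization, 14 with centring on the mean, 1 when centred and scaled, 7 with trend and robust, 16 with the series block, 15 with the 12 arrays, 5 to 12 without 1 array and 2 without the pair. Those that differed from Th2 cells, 2 as reported, numbered 0 with 200-kb bins, scaling, quantile normalization, centring on the mean, trend and robust eBayes or the pair left out, 9 with the median, 1 with at least 50 probes and when centred and scaled, 6 without extreme probes, 265 with weights, 4 within series 40 and 0 to 2 without 1 array. The 2 bins reported against Th2 cells were lower in Th1 cells. The 9 with the median were 6 higher and 3 lower, and the 265 with weights were 23 higher and 242 lower. Why the counts moved was not tested.

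With the replicate number as a replicate block the counts were 87 bins, 3 chromosomes, 3 bands, 32 bins against naive cells and 2 against Th2 cells. The light minus dark difference kept its sign under every alternative run. Mean centring and other fits cannot alter this within-array value. Nor can leaving out arrays reverse it, since the baits do not overlap. For the 14 named regions, 293 values under 21 settings held 140 that passed as reported, 153 that no longer passed and 0 that reversed. A reversal could not occur where only arrays were left out, since regions were named where the baits do not overlap. Leaving out the array pair and the centred scaling were chosen after seeing the data.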
